A study of Mus musculus with 2 samples.

Results

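The 8 genes described here encode transcription factors that pattern the olfactory placode and the forebrain: Sox2, Pax6, Otx2, Dlx5, Dlx6, Emx1, Meis2 and Nr2f2. They were chosen by name, from a list of developmental factors, out of 21525 protein-coding genes that lie between 2 called boundaries. The choice of these genes, and of the lists set beside them, was made with earlier results of these data known. Dlx5 and Dlx6 are neighbours, so the 8 genes make up 7 loci. The map comes from in situ Hi-C with the restriction enzyme DpnII on mature olfactory sensory neurons, sorted by the P2-GFP allele, which marks cells that express the odorant receptor gene Olfr17 (P2). The donors were adult mice of the 129P2/OlaHsd strain and of mixed sex, the tissue was the olfactory epithelium, and no treatment was given. The 2 biological replicates, of 23000 and 20000 cells, form 1 group, and the deposited boundaries were called on both combined, so no value below has a replicate error and no test between groups was possible. The sources used here do not give the number of contacts. A list of boundaries holds no expression values, so the identity of the cells could not be checked against marker genes.

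In vertebrate embryos the olfactory placode, a thickening of the head ectoderm, gives rise to the olfactory epithelium. Combinations of HMG-box, homeodomain and nuclear receptor factors set up the placode and divide the forebrain beside it. Several of these factors are used again in the stem and progenitor cells of the adult epithelium. Genes of this kind often lie in gene-poor sequence and answer to enhancers far away. Hi-C domains matter to them because an enhancer and a promoter contact each other less often across a boundary.

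None of the 8 genes had its transcription start site (TSS) within 25 kb of a boundary midpoint, and 7 of the 8 lay in intervals wider than the median over all protein-coding genes. The distance to the nearest boundary ran from 37.9 kb for Sox2 to 1176 kb for Nr2f2, with a median of 89.8 kb, against 58.7 kb over all protein-coding genes. That order depends on the Weak boundaries: with Strong boundaries alone the median of the 8 genes stayed at 89.8 kb, below the 99.2 kb over all protein-coding genes. Within 25 kb, 24.1% of all protein-coding genes had a boundary. By the approximation of 3 divided by the number counted, 0 of 8 genes allows a share of up to 37.5%, and 0 of 7 loci up to 42.9%. The approximation is rough for so few genes, which were also picked by name and not at random. This list is too short to set its share apart from that background. The interval between the flanking boundaries had a median of 493 kb for the 8 genes and 275 kb over all protein-coding genes, of which 49.1% lay in an interval above that median. By locus, 6 of 7 were above it, and only the Meis2 interval was below. With the authors' Strong boundaries alone these medians were 960 kb for the 8 genes and 480 kb over all protein-coding genes, and the intervals of both Meis2 (350 kb) and Emx1 (290 kb) were below.

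**Figure D1:**
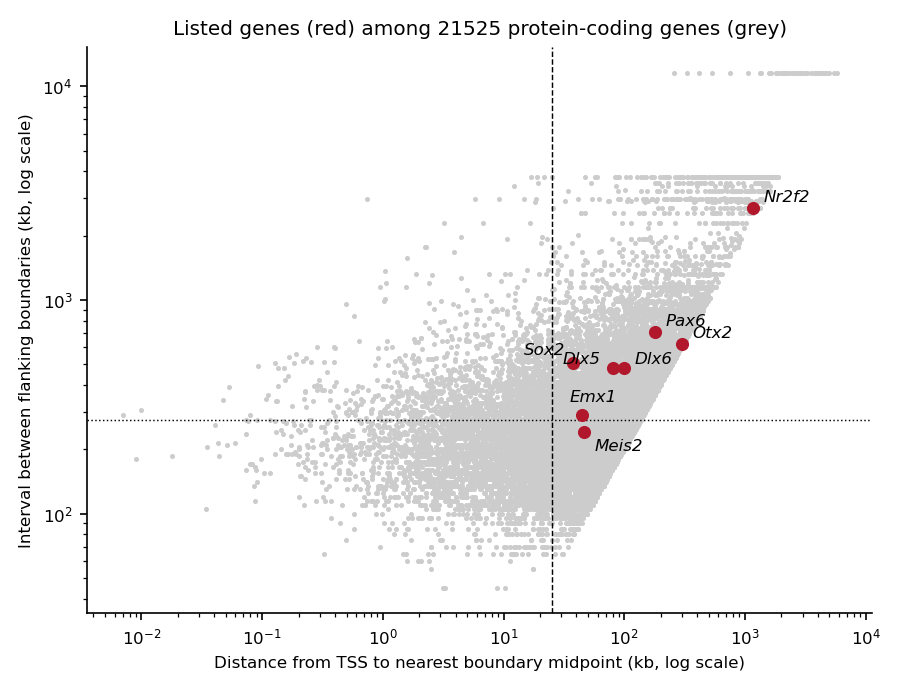
Distance from the TSS to the nearest boundary midpoint (kb, log scale) against the size of the interval between the flanking boundaries (kb, log scale) for 21525 protein-coding genes (grey) and the 8 patterning genes (red). The dashed line marks 25 kb and the dotted line the median interval of 275 kb; all 8 genes lie to the right of the dashed line, and Meis2 lies below the dotted one.

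Sox2 encodes an HMG-box factor of neural progenitors that is also made in basal and sustentacular cells of the olfactory epithelium. It lies on chromosome 3 (ENSMUSG00000074637.7, 34650405 to 34652461, plus strand; coordinates are GRCm38). A Strong boundary with a score of 0.93 lay 37.9 kb upstream of its TSS, at 34610001 to 34615000, and a Weak boundary (score 0.374) was found 467 kb downstream. Strong and Weak are the authors' classes, which split at a score of 0.5, and the score has no stated unit. The interval of 505 kb was wider than that of 83.6% of protein-coding genes and held no other protein-coding TSS.

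The Sox2 promoter therefore sat close to one end of a long interval whose remainder stretched downstream. Protein-coding neighbours were distant, with Dnajc19 ending 569 kb to the left and Atp11b starting 1102 kb to the right, and these gaps together exceeded those of 98.5% of protein-coding genes. The interval did hold 10 non-coding genes and pseudogenes. The long non-coding gene Sox2ot, which runs across Sox2 on the same strand from 34104270 to 34682619, was crossed by 2 boundaries. One was the Strong boundary upstream of Sox2, and the other was a Weak one (score 0.324) that lay 3.23 kb from the annotated start of Sox2ot. The 5' end of Sox2ot and the Sox2 promoter were thus in different intervals.

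Pax6 encodes a paired-box and homeodomain factor without which mice form neither eyes nor nose. Its TSS on chromosome 2 (ENSMUSG00000027168.21, 105668900 to 105697364, plus strand) lay 181 kb from the boundary upstream and 524 kb from the one downstream. Both were Strong with nearly equal scores, 0.588 and 0.595, and the interval of 705 kb exceeded that of 91.5% of protein-coding genes. Pax6 and Elp4, a subunit gene of the Elongator complex whose introns are known to hold distant Pax6 enhancers, shared this interval in full. Elp4 lies on the opposite strand, its 3' end 3.66 kb beyond that of Pax6, and no boundary fell in either gene.

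The Pax6 interval went on past Elp4. Immp1l, the gene of a mitochondrial peptidase, and Dnajc24, a gene of diphthamide synthesis, had their TSSs 236 and 335 kb from that of Pax6. The downstream boundary fell inside the pseudogene Dcdc5, 189 kb past the Dnajc24 TSS. Upstream, the interval held Paupar and the antisense gene Pax6os1, and its boundary lay 88.2 kb from the TSS of Rcn1. The intervals on either side measured 235 kb each, so the Pax6 interval was wider than both.

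Otx2 encodes a homeodomain factor needed for the head and the forebrain. It lies on chromosome 14 (ENSMUSG00000021848.16, 48657677 to 48673819, minus strand). Its TSS was near the middle of its interval, with a Strong boundary (score 1.2) 301 kb downstream and a Weak one (score 0.474) 319 kb upstream. The interval of 620 kb held 1 other protein-coding TSS, that of Tmem260, 73.6 kb from the Strong boundary, and 21 non-coding genes and pseudogenes. Among these was Otx2os1, which starts inside Otx2 and runs 202 kb upstream on the opposite strand, wholly within the interval. Intervals of 260 and 225 kb lay on either side, both narrower.

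Dlx5 and Dlx6 encode distal-less homeodomain factors, and Dlx5 takes part in the growth of olfactory axons to the bulb in mice. They lie tail to tail on chromosome 6, with Dlx6 (ENSMUSG00000029754.13) at 6863334 to 6868568 on the plus strand and Dlx5 (ENSMUSG00000029755.10) at 6877805 to 6882085 on the minus strand. Their bodies are 9.24 kb apart and no boundary separated them. The shared interval of 480 kb was bounded by a Weak boundary on the Dlx6 side (score 0.272), 381 kb from the Dlx6 TSS, and a Strong one on the Dlx5 side (score 0.996), 80.4 kb from the Dlx5 TSS. The Strong boundary is thus upstream of Dlx5 and downstream of Dlx6, at 99.2 kb.

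That Strong boundary (6960001 to 6965000) lay inside Sdhaf3, an assembly factor gene of succinate dehydrogenase, 6.5 kb past its TSS. The Sdhaf3 promoter was on the Dlx side of the midpoint, and 80.5 kb of the gene was beyond it. On the Weak side the interval took in Sem1, a small proteasome subunit gene, 285 kb from Dlx6, and ended at the non-coding gene Gm20617. The antisense gene Dlx6os1 lay within the interval too.

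Emx1 encodes a homeodomain factor of the dorsal forebrain and cortex. It lies on chromosome 6 (ENSMUSG00000033726.8, 85187438 to 85204462, plus strand). Counted to the boundary midpoints, its interval held 5 protein-coding TSSs, the most of the 7. A Strong boundary with a score of 1.61, higher than 91.8% of the 7576 boundaries, lay 44.9 kb upstream, at 85140001 to 85145000. It separated Emx1 from Spr, the sepiapterin reductase gene, whose TSS was 4.73 kb beyond it. A second Strong boundary (score 0.781) lay 245 kb downstream, 0.511 kb from the TSS of Smyd5. That TSS fell inside the 5 kb boundary bin, so its side of the boundary is not resolved. The top count of Emx1 rests on it, as Pax6 and the Dlx interval held 4 each. Between the 2 midpoints Emx1 shared 290 kb with Sfxn5, Rab11fip5, the notochord homeobox gene Noto and, at the very edge, the Smyd5 promoter.

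Meis2 encodes a TALE homeodomain factor, a partner of Pax6 and Dlx proteins in olfactory bulb neurons. At 203 kb it is the longest gene of the list, on chromosome 2 (ENSMUSG00000027210.20, 115863064 to 116065839, minus strand), and it nearly filled its interval of 240 kb. A Strong boundary (score 0.648) lay 46.7 kb upstream of the TSS. A Weak boundary with the lowest score of all flanks, 0.228, lay 193 kb downstream, inside the gene and 9.44 kb before its end. Meis2 was the only one of the 8 with a boundary in its body, and among all protein-coding genes 13.1% had one.

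The Weak bin inside Meis2 held 4 of the 16 annotated transcript starts of the gene, the closest 0.354 kb from its midpoint. These belong to short transcripts annotated as processed or with a retained intron, and the protein-coding starts all lay at the other end of the gene, within 1.33 kb of its TSS. On the upstream side, beyond the Strong boundary, the next protein-coding gene was Tmco5, 813 kb from Meis2. On the downstream side, beyond the Weak one, it was BC052040, 84.3 kb away.

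Nr2f2 encodes COUP-TFII, an orphan nuclear receptor of the ventral forebrain and of many mesodermal tissues. It had the widest interval of the 8 genes, on chromosome 7 (ENSMUSG00000030551.14, 70351944 to 70366735, minus strand). A Weak boundary (score 0.245) lay 1176 kb upstream and a Strong one (score 0.877) 1519 kb downstream. The interval of 2695 kb was wider than that of 98.0% of protein-coding genes, and the nearest boundary was farther away than for 99.4% of them. It was the only listed gene with no boundary within 500 kb of its TSS, as for 1.94% of protein-coding genes, while the others had 2 or 3 and the median over all protein-coding genes was 4.

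The Nr2f2 interval is a gene desert of protein-coding genes but not of annotated transcripts. It held 1 other protein-coding TSS, Gm10295 at 985 kb, and 39 non-coding genes and pseudogenes, 22 of them lincRNAs. No run of missing sequence lies in it, and reads cut from the reference from it aligned uniquely at 94.7% of positions, against 90.5% across the genome. In the other 6 intervals the shares were 91.3 to 97.9%, so none of the 7 intervals was poorer in unique sequence than the genome.

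**Figure D2:**
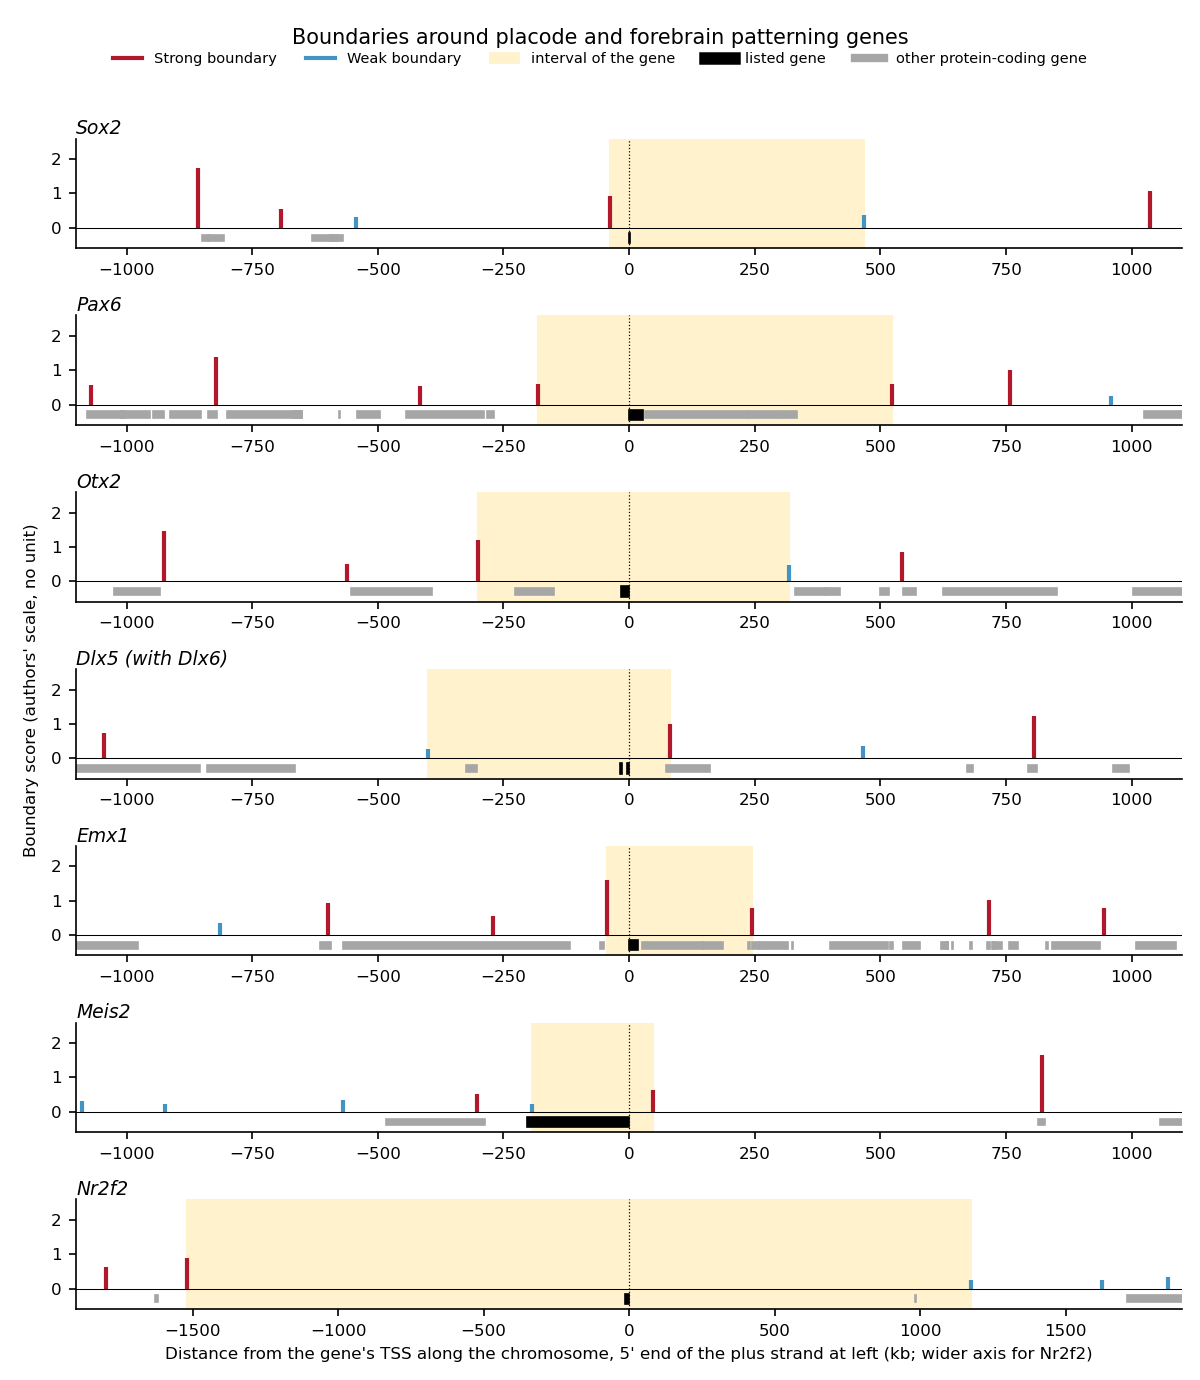
Boundaries around the 7 loci, by distance from the TSS in kb (the Nr2f2 axis is wider), with the boundary score as the height of each line and the authors' class as its colour. Shading marks the interval of the listed gene (black), and other protein-coding genes are grey; the Sox2 and Nr2f2 intervals hold almost no grey, while grey runs along most of the Emx1 interval.

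Sox2 and Meis2 were each the only protein-coding gene of their interval, a situation shared by 8.74% of all protein-coding genes. The median number of protein-coding TSSs in the interval was 3 for the 8 genes, against 6 over all protein-coding genes. With genes of any annotated type counted the order turned, with medians of 15.5 and 10. Their intervals were wider than both neighbouring intervals at 3 loci (Pax6, Otx2 and Nr2f2), and narrower than at least one of them at the other 4 loci. The share of all intervals that are wider than both neighbours was not computed, so this count is a description only.

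The 14 distinct boundaries that flank the 8 genes had scores from 0.228 to 1.61. Of these, 9 were Strong and 5 Weak, against 53.4% Strong in the whole list, and their median score was 0.621, against 0.545 over all boundaries. Both flanks were Strong for 2 of the 8 genes, Pax6 and Emx1, and for 38.6% of all protein-coding genes. The other 6 genes each had 1 Strong and 1 Weak flank, with Dlx5 and Dlx6 sharing theirs. The share of all protein-coding genes with 1 of each class was not computed.

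The stronger flank was usually the closer one. The nearer boundary had the higher score at 6 of 8 genes, against 51.2% of all protein-coding genes, with a median score of 0.963 for the nearer and 0.424 for the farther flank. Over all protein-coding genes these medians were 0.676 and 0.646. Pax6, with 0.588 for the nearer and 0.595 for the farther flank, and Nr2f2, with 0.245 and 0.877, were the exceptions. Dlx5 and Dlx6 share both flanks, so by locus the count is 5 of 7. The nearer boundary lay upstream of the TSS for 6 of 8 genes (all but Otx2 and Dlx6), against 52.0% of all protein-coding genes. With 7 loci these counts are given as a description.

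**Figure D3:**
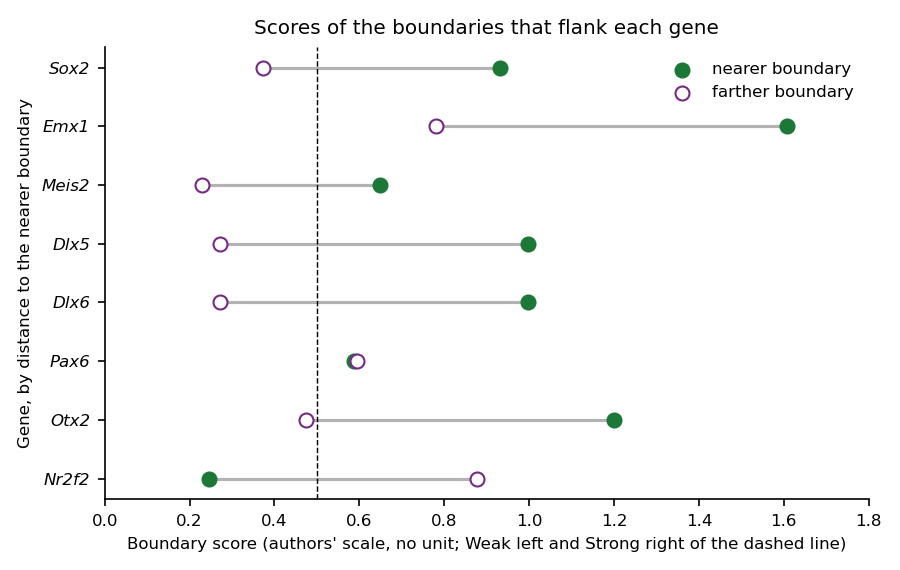
Score of the nearer boundary (filled) and of the farther boundary (open) for each gene, genes ordered from the closest nearer boundary (top) to the farthest (bottom). The nearer boundary has the higher score for Sox2, Emx1, Meis2, Dlx5, Dlx6 and Otx2, the scores of Pax6 nearly coincide, and those of Nr2f2 run the other way.

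CTCF is the zinc finger protein that, with cohesin, marks many domain borders, and it reads an oriented motif. A match to its core consensus lay within 10 kb of 8 of the 14 flanking boundaries, against 58.0% of all boundaries, so the flanks hold such matches about as often as the rest of the list. These are sequence matches in the C57BL/6J reference and not measured binding. The count depends on the window: within 5 kb it was 7 of 14, against 40.3% of all boundaries. With 20 kb it was 11 of 14, against 74.8% of all boundaries. Within 10 kb, both flanks had a match at Sox2, Otx2 and Emx1, a single flank at Meis2 and Nr2f2, and neither at Pax6 or at Dlx5 and Dlx6. The sequences are shown so that the strand and core of each match can be read. Each is 30 bases of GRCm38, written 5' to 3' on the strand of the match, with the core in capitals. The first is the only match at the Strong boundary upstream of Sox2, and the others are those within 5 kb of a flanking boundary.
Sox2 upstream, chr3:34606264-34606293, minus strand: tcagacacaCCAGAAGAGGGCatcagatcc
Sox2 downstream, chr3:35114596-35114625, plus strand: tcctgaagcCCAGCAGAGGGCtgttcttat
Otx2 downstream, chr14:48370507-48370536, plus strand: catttcctaCCACTAGAGGGCaaccaatca
Otx2 upstream, chr14:48989372-48989401, minus strand: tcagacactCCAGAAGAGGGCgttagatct
Emx1 upstream, chr6:85139710-85139739, plus strand: aagtggtggCCAGAAGAGGGCctctgcttc
Emx1 upstream, chr6:85141162-85141191, plus strand: gtagaacggCCAAAAGGGGGCagtagaaca
Emx1 downstream, chr6:85435624-85435653, plus strand: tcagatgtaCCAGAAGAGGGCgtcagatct
Meis2 upstream, chr2:116112149-116112178, minus strand: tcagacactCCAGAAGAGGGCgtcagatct
Meis2 upstream, chr2:116116698-116116727, plus strand: ctcatggagCCAGAAGAGGGCatcagatcc
Nr2f2 downstream, chr7:68843557-68843586, plus strand: ctttgcttgCCAGTAGGTGGCgccactggg

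Otx2 had matches in both directions. The match inside the Strong bin, 1.98 kb from the midpoint, was on the plus strand at the left end, and the one 3.11 kb from the Weak midpoint was on the minus strand at the right end, so these face each other across the interval. Another match at the left end, 5.21 kb from the Strong midpoint, was on the minus strand and pointed out of it. At Sox2 both matches pointed out of the interval. The pair closest to the Strong boundary upstream of Emx1, 1.32 and 2.78 kb from its midpoint, pointed towards Emx1, and the other matches there, at 7.11 and 9.51 kb, pointed away. Of the 15 matches within 10 kb of the flanks, 7 pointed into the interval of the listed gene and 8 out of it.

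Many of these matches look alike. The core CCAGAAGAGGGC accounted for 8 of the 15, and for 56.8% of the 88670 core matches on the autosomes and X. In the mouse, copies of the B2 short interspersed element are known to carry CTCF motifs. Of the 15 matches, 8 lay in sequence that the reference marks as repeat by soft masking, against 70.4% of all core matches. Among those printed, 4 lay outside marked repeats: the downstream match of Sox2, the plus strand match of Otx2, the Emx1 match closest to the Strong midpoint, and that of Nr2f2.

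The boundaries without a match nearby were far from one at several loci. The nearest match lay 18.4 kb from the upstream and 159 kb from the downstream boundary of Pax6. It lay 11.6 kb from the Strong and 57.5 kb from the Weak boundary around Dlx5 and Dlx6, 16.5 kb from the Weak boundary in Meis2 and 163 kb from the Weak boundary of Nr2f2. Among the listed flanks, the highest scores, 1.61 upstream of Emx1 and 1.2 downstream of Otx2, came with a match within 10 kb. The lowest, 0.228 in Meis2, 0.245 at Nr2f2 and 0.272 at the Dlx interval, came without one. Exceptions ran both ways, and a link between score and match was not tested. The Strong boundary in Sdhaf3 had none within 10 kb, with a score of 0.996, and the Weak boundary downstream of Sox2 had one at 2.89 kb, with a score of 0.374.

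Core matches were sparse inside most of these intervals. Nr2f2 had 1.04 per 100 kb, Meis2 1.67, Pax6 1.7, the Dlx interval 2.08, and Sox2 and Otx2 2.57 and 2.58, against a median of 4.14 per 100 kb over the 5799 intervals that hold a protein-coding TSS. Emx1 stood apart with 9.31 per 100 kb. It was also the interval richest in G and C (49.0%, against a median of 43.4%), and the Nr2f2 interval was the poorest of the list (40.0%). Base composition moved with the number of matches here, and its part in it was not tested.

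Other factors of placode and forebrain patterning, 48 genes listed by name, lay in intervals closer in size to the genome median. Their interval median was 328 kb, with 36 of 48 above 275 kb, against 49.1% of all protein-coding genes. Their median number of protein-coding TSSs was 2, against 3 for the 8 genes and 6 over all protein-coding genes. In 16 of 48 cases (33.3%) the gene was the only protein-coding gene of its interval. The share was 25.0% of the 8 genes and 8.74% of all protein-coding genes. Of these genes 12 had a boundary within 25 kb (25.0%), close to the share over all protein-coding genes. Neurogenic bHLH and Hes factors (13 genes) had a median interval of 250 kb, and genes of odorant signal transduction (14 genes) had one of 243 kb.

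**Figure D4:**
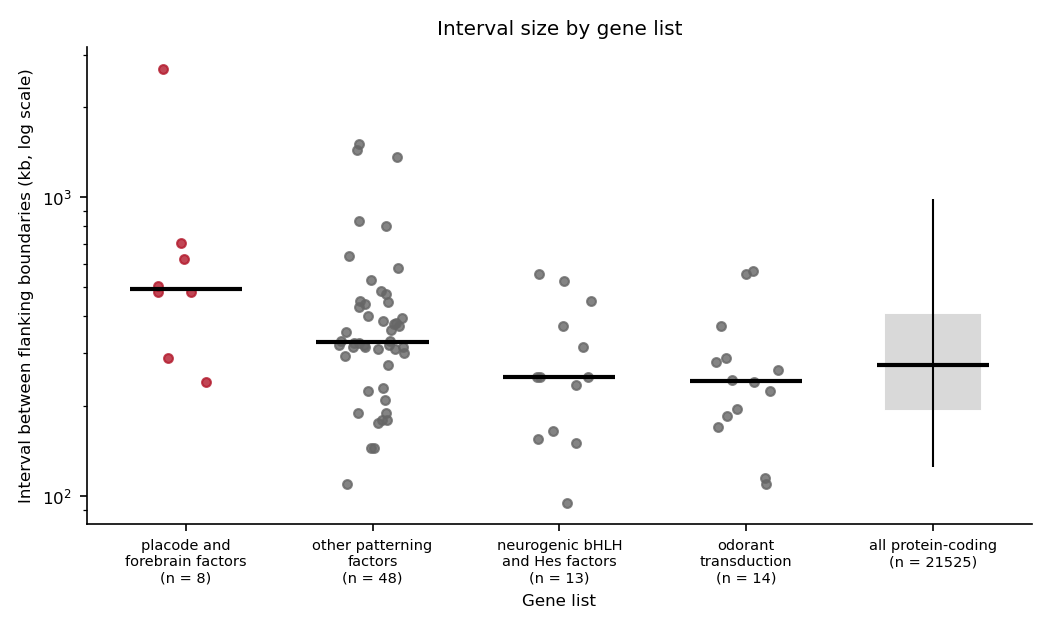
Size of the interval around each gene (kb, log scale; points are genes, lines are medians) for the 8 patterning genes (red), 48 other patterning factors, 13 neurogenic factors and 14 odorant transduction genes, with all 21525 protein-coding genes at the right (box: quartiles, line: 5th to 95th percentile). The medians are 493, 328, 250, 243 and 275 kb.

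In that longer list the genes nearest to a boundary were Pbx3 at 0.642 kb, Eomes at 0.712 kb and Emx2 at 5.87 kb. Irx1 was the farthest, at 516 kb, and Fezf2 lay at 206 kb. The widest intervals were those of Crx (1510 kb) and Irx1 (1440 kb). None reached the 2695 kb of Nr2f2.

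Paralogs of the 8 genes differed from them in some respects and resembled them in others. Nr2f1 had a boundary at 52.7 kb in an interval of 315 kb, and Nr2f6 one at 14.5 kb in an interval of 175 kb, both far below Nr2f2. Emx2, flanked by a Strong boundary with a score of 2.50 at 5.87 kb, lay much closer to a boundary than Emx1, although their intervals were alike in size (315 kb for Emx2). Otx1 was 14.6 kb and Crx 27.5 kb from a boundary, much closer than Otx2. Their intervals were wide, like the 620 kb of Otx2, at 445 kb for Otx1 and 1510 kb for Crx. Meis1 was 23.5 kb from a boundary in an interval of 180 kb and, like Meis2, was the only protein-coding gene there. Meis3 was 107 kb away in an interval of 375 kb that held 13 protein-coding TSSs. Sox1 at 197 kb, Sox3 at 179 kb and Sox21 at 170 kb were all farther from a boundary than Sox2. Sox3, like Sox2, was the only protein-coding gene of its interval (440 kb). Pax2 was 156 kb from a Strong boundary of score 2.15, a distance near the 181 kb of Pax6, but its interval was narrower (330 kb against 705 kb).

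No boundary divided the partners at any of the 3 paired Dlx loci. Dlx1 with Dlx2, Dlx3 with Dlx4, and Dlx5 with Dlx6 each lay in 1 interval. The TSSs of Dlx5 and Dlx6 are 18.8 kb apart, a short distance beside the median interval of 275 kb over all protein-coding genes. The share of undivided pairs among genes as close as these was not computed. The intervals measured 320 kb for Dlx1 and Dlx2, 145 kb for Dlx3 and Dlx4, and 480 kb for Dlx5 and Dlx6. Dlx3 was 7.62 kb from a boundary, the closest of the 6 genes, and Dlx6 at 99.2 kb was the farthest.

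Genes with the most similar flanks were found by the Euclidean distance over 4 rank percentiles in this 1 map, the nearer and farther distances and the lower and higher scores. They were Phex for Sox2, Dsc2 for Pax6, Scp2d1 for Otx2, Mfsd4b4 for Dlx5, Gm28269 for Dlx6, Apol9b for Emx1, Zmym1 for Meis2 and Gm20765 for Nr2f2, at distances of 0.0382 to 0.0839. The closest likeness was that of Apol9b, 46.5 kb from a boundary in an interval of 295 kb, to Emx1. Genes alike in rank could still differ in kb. Gm20765 lay 387 kb from a boundary in an interval of 1135 kb, against 1176 and 2695 kb for Nr2f2.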

How the data were processed

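In situ Hi-C was done on 2 replicates of sorted olfactory sensory neurons. Per the design text in the labels, the authors called boundaries on the contacts of both replicates combined. The deposited list, on GRCm38 per the submitters' processing notes, gives 7576 bins of 5 kb with a class and a score of unstated unit. The sources used here name neither caller, window, aligner nor depth.

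A bin's midpoint was its position. Genes were the 21728 protein-coding symbols of GENCODE M21 on the autosomes and X, with the 5' end as TSS; 203 outside the outermost boundaries were left out. Exact CTCF core consensus matches were sought on both strands of the RefSeq sequence (GRCm38.p6). For read uniqueness, 100-base reads cut every 500 bases (genome: every 50 kb) were aligned with minimap2 2.31 at a mapping quality of at least 30. Scripts were tested on simulated data.

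The members and lists were chosen with earlier results of these data known. With 1 combined list no test was run. Named were all 8 genes, genes in their intervals or at their boundaries, and, among other patterning factors, the nearest, farthest and widest and the paralogs. Alternatives covered boundary class and score, transcript starts, bin edges, assembly gaps, autosomes, distance limits and each gene left out.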

Additional observations from a re-analysis of the deposited data

How the results depend on the processing

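No paired analysis was possible because both replicates form 1 group and were combined before the boundaries were called, so leaving out a replicate was not possible either. Of 105 alternative values, 92 stayed within 1.5 times the reported value. Some of them could not move: the bin edge and transcript start settings kept the reported TSS counts per interval. Leaving out Dlx6 was also counted again among the genes left out. The share of 92 is therefore not a measure of robustness. The median interval of the 8 genes was 960 kb with Strong boundaries alone (480 kb over all protein-coding genes) and 1100 kb with the highest-scoring boundaries (510 kb), as fewer boundaries make wider intervals. The median distance to the nearest boundary was 89.8 kb under both, below the 99.2 and 107 kb over all protein-coding genes, so that comparison turned. With Strong boundaries alone, the Sox2 interval was 1075 kb and the Dlx interval 1125 kb, and Emx1 (290 kb) and Pax6 (705 kb) did not change. The Meis2 interval was 1275 kb with the highest-scoring boundaries. With every annotated transcript start, 1 of the 8 genes, Meis2, had a boundary within 25 kb (29.9% of all protein-coding genes), and within 50 kb of the TSS it was 3 of 8 (43.6%). Counting genes of any type gave a median of 15.5 TSSs per interval, above the 10 over all protein-coding genes, where the count of protein-coding TSSs was below, so the direction of that comparison depends on the gene types counted. A boundary's position is known to 5 kb at best, and the unknown depth limits which boundaries were called.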

Other observations

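Sequences of 300 bases around RefSeq starts (250 before and 50 after) were found for 6 of the 8 genes, at 10 starts, and differed widely in CpG content. The Emx1 sequence held 37 CpG dinucleotides, more than 94.7% of the 32851 promoters, and that of Sox2 held 27. That of Nr2f2, at the only RefSeq start found for it, held 2, below the median of 7 over all promoters. The protein-coding transcript starts of Nr2f2 that lie 6.14 and 6.81 kb inside the gene were not covered. The Otx2 starts in RefSeq lay 6.18 to 11.1 kb inside the 5' end annotated in GENCODE, a shift that is small beside its 301 kb to the nearest boundary. The 24 annotated starts of Pax6 spanned 23.6 kb and stayed between 181 and 205 kb from a boundary.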
